A study of Mus musculus with 9 samples.

Results

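Single cells of the hypothalamus, the brain region that runs hormone release, hunger, body temperature and sleep, are described here in 3 libraries. They are the 4th, 5th and 6th library codes in the order in which the codes first appear in the deposited table, and they are called library 4, library 5 and library 6. They held 3491, 2706 and 3916 cells, 10113 of the 29571 cells of the whole series. All mice were C57BL/6 in the labels and C57BL/6 J in the study's methods. They were 9 to 11 weeks old, singly housed in chambers with a motor-driven bar and killed at ZT12, when lights go off. The normal sleep (NS) group slept freely, the sleep deprived (SD) group was kept awake for 12 h from lights on by the sweeping bar, and the recovery sleep (RS) group slept again after the same deprivation, for 24 h in the study's methods and in 1 place of the labels and for 12 h in another. Each library was made from 3 mice combined, and every region of every group is 1 library. No value below has a replicate, no test across samples can be made, and every interval is a 95% interval for counting error only.

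The sample labels run from cortex to hypothalamus to brainstem, each as NS, SD and RS, so that label order would make library 4 hypothalamus NS, library 5 hypothalamus SD and library 6 hypothalamus RS. That order was first tested against the supplementary tables of the study. All 1999 barcodes listed there as brainstem NS lay in library 7, and 5 to 13 of them lay in any other library. Shares of microglia with a UMI were then compared with the shares tabulated for brainstem microglia, as the mean absolute difference over genes. Library 8 was nearest to brainstem SD in both tables that give it, at 1.86 percentage points over 100 genes (7.29 to 11.3 in the other libraries) and 2.2 over 214 genes (6.53 to 12.5). Library 9 was nearest to brainstem RS at 4.24 points (6.41 to 14.9), and library 7 to brainstem NS at 2.21 (8.21 to 15.8). The label order therefore held for the 3 brainstem libraries. Those tables were used here only in part. The study's supplement also covers the hypothalamus, but its hypothalamus tables were not used here, so for libraries 4 to 6 only the region was checked. Transcription factors of the hypothalamus summed to 383, 322 and 457 CPM (UMI counts scaled to a common total) in libraries 4, 5 and 6, with 10 of 10 detected in each, and to at most 6.39 CPM in any other library. Six6, a member of that list, was also a leading gene of a pituitary cluster, so the sum does not measure hypothalamus alone. Nkx2-1, which patterns the developing hypothalamus, had 61, 39 and 31 UMIs in libraries 4, 5 and 6 and 0 in the other 6 libraries. The sleep groups of libraries 4, 5 and 6 stay unassigned, and no difference below is described as an effect of sleep loss.

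Libraries 4, 5 and 6 also held pituitary tissue. Gh, the growth hormone gene of pituitary somatotropes, took 25.3%, 27.9% and 32.1% of all UMIs and was found in 99.4%, 96.9% and 100% of cells, neurons included. Prl, the prolactin gene, took 1.12%, 1.03% and 2.41%, and Pomc, the precursor of adrenocorticotropic hormone and melanocyte-stimulating hormone, took 2.24%, 0.261% and 2.13%. These 3 genes were therefore left out of every total, which leaves 2830745, 1501921 and 3480312 UMIs. A level in CPM scales UMI counts to that total, and counts of a library or cell class were summed before scaling. The median cell held 616, 438 and 655 UMIs, so library 5 was the shallowest. Hemoglobin genes, a sign of blood, took 0.317%, 0.579% and 0.132% of UMIs other than Gh, Prl and Pomc. Between pairs of libraries 11 to 18 cell barcodes were shared.

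Levels are compared as the ratio of library 5 to library 4 and of library 6 to library 5. Both comparisons use library 5, so a gene high in library 5 tends to show a ratio above 1 in the first and below 1 in the second. The background is the share of all genes with at least 100 UMIs in both libraries together whose ratio was at least 1.5-fold. Over all cells it was 7.10% higher and 3.87% lower in library 5 than in library 4 (6743 genes), and 5.68% higher and 14.9% lower in library 6 than in library 5 (6990 genes). Every count of genes past 1.5-fold below is to be read against that background for the same cells.

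The cells of the hypothalamus include neurons that make neuropeptides, astrocytes, ciliated ependymal cells (EPC) that line the ventricle, and tanycytes, which line the floor of the third ventricle and contact the blood. The pituitary below it is driven by hypothalamic hormones and holds endocrine cells in its anterior and intermediate lobes, and glia called pituicytes in its posterior lobe. Clusters were named "-like" only where fixed markers allowed it. The 3 clusters led by Pappa2 and Ghrhr, by Prl, Oacyl and Pcsk2, and by Lhb, Fshb and Cga formed the pituitary endocrine-like class. Unnamed were cluster 18, led by Cd74 and H2-Aa, cluster 1, led by Gh and Pou1f1, cluster 5, led by the stress-responsive genes Egr2, Cyr61, Socs3 and Atf3, and cluster 7, led by Emd, Tnnt1, Cidea and Tbx19.

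Library 5 held the fewest pituitary cells and the most brain cells. Pituitary endocrine-like cells were 1247 of 3491 cells in library 4 (35.7%, 34.1 to 37.3), 373 of 2706 in library 5 (13.8%, 12.5 to 15.1) and 1487 of 3916 in library 6 (38.0%, 36.4 to 39.5). Pituitary stem or folliculostellate-like cells, the non-hormonal cells of the anterior lobe, were 4.78%, 2.44% and 7.05%. Cells of cluster 1 went another way, at 11.0%, 11.6% and 20.6%. Neuron-like cells were 295, 378 and 171, or 8.45% (7.55 to 9.42), 14% (12.7 to 15.3) and 4.37% (3.75 to 5.05).

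The other brain classes kept the same order of libraries in most cases. Astrocyte-like cells were 6.96%, 11.8% and 2.40%, EPC-like cells 3.64%, 8.31% and 4.75%, and tanycyte or pituicyte-like cells 4.87%, 5.99% and 3.19%. Endothelial-like cells were 6.50%, 8.31% and 2.63%, and microglia-like cells 3.44%, 4.69% and 0.868%. Each of these was highest in library 5, and all but EPC were lowest in library 6. Some clusters had another order, such as cluster 5 at 3.84%, 6.87% and 8.15%, cluster 7 at 5.10%, 3.58% and 6.23%, and the endothelial-like cluster 15, led by Plvap, at 3.32%, 1.11% and 1.48%. Among cells with at least 500 UMIs the astrocyte share of library 5 was 6.56%, beside 6.65% in library 4 and 2.46% in library 6, so library 5 did not hold more astrocytes than library 4 among deeper cells. At the coarser clustering the pituitary endocrine-like class took in more cells, 49.3%, 27.3% and 62.0%, in the same order. Shares of captured cells depend on what was dissected and on which cells survived dissociation, and these cannot be told apart here.

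**Figure D1:**
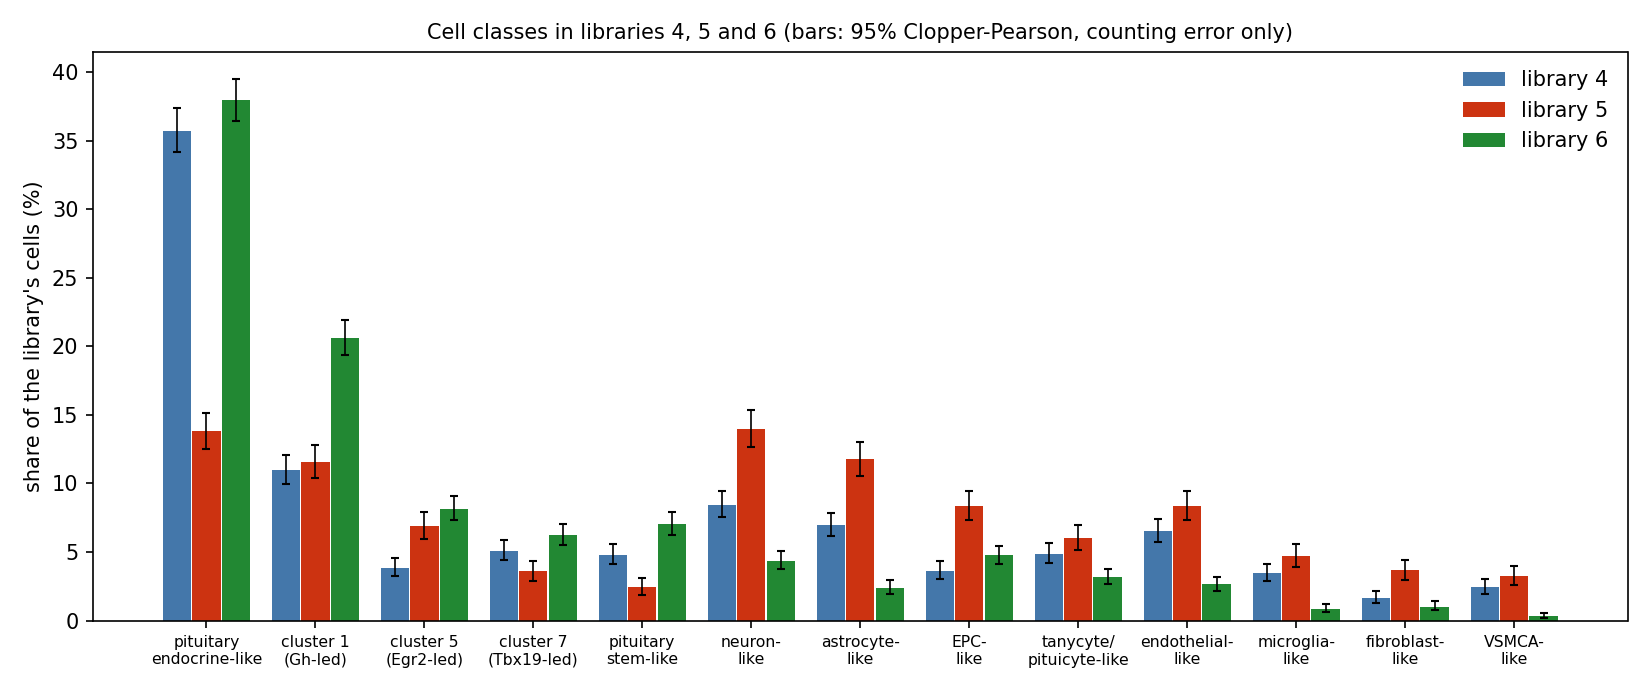
Share of cells (%) in each class or unnamed cluster for libraries 4, 5 and 6, as bars with exact Clopper-Pearson 95% intervals for counting error only, 1 library each. Pituitary endocrine-like cells were 35.7%, 13.8% and 38.0%, while neuron-like cells were 8.45%, 14% and 4.37%.

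Among the pituitary hormone genes, Pomc differed most. Over all cells Pomc stood at 31335, 3681 and 33516 CPM, from 88700, 5528 and 116647 UMIs, 0.117 times as high in library 5 as in library 4 (0.114 to 0.121) and 9.11 times as high in library 6 as in library 5 (8.86 to 9.36). Pomc was found in 1759 cells (50.4%) of library 4, 215 cells (7.95%) of library 5 and 2573 cells (65.7%) of library 6. Library 5 was thus far below both other libraries on either measure. Pcsk2, the convertase that cuts the Pomc precursor down to melanocyte-stimulating hormone in melanotropes of the intermediate lobe, followed it at 273, 107 and 372 CPM, with ratios of 0.391 (0.327 to 0.464) and 3.49 (2.96 to 4.14). Oacyl, a leading gene of the same cluster as Pcsk2, had 107, 2 and 135 UMIs, or 37.8, 1.33 and 38.8 CPM. For 2 UMIs the ratio to library 4 was 0.0352 with an interval from 0.00421 to 0.130. Fewer cells of a type and less RNA per cell cannot be told apart in such sums over all cells.

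Split by cluster, more of this lay in cluster 3 than in cluster 7. Cluster 3, led by Prl, Oacyl and Pcsk2, held 51967, 191 and 74168 Pomc UMIs in libraries 4, 5 and 6, although it held 478, 172 and 651 cells. Pomc was found in 366 of these 478 cells, in 29 of 172 and in 457 of 651. Oacyl had 84 UMIs in cluster 3 of library 4, 103 in library 6 and 0 in library 5, so it was at least 7.30-fold higher in library 4 and at least 6.21-fold higher in library 6 than the 3 UMIs that a count of 0 allows in library 5. Cluster 7 is led by Tbx19 among others, the factor that switches on Pomc in corticotropes of the anterior lobe. It held 18172, 4471 and 20157 Pomc UMIs in 178, 97 and 244 cells, so that its Pomc in library 5 was 78331 CPM, 0.624 times the level of library 4 (0.604 to 0.645). Most of the 5528 Pomc UMIs of library 5 were therefore in cluster 7, whereas most of those of libraries 4 and 6 were in cluster 3. Pomc and Prl were left out of the clustering, while Pcsk2 and Oacyl took part in it and help to define cluster 3.

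The gonadotropin genes differed over all cells but little within their own cluster. Over all cells Cga, the alpha subunit shared by gonadotropins and thyrotropin, stood at 17609, 8279 and 15023 CPM, Lhb at 5459, 2594 and 4981 and Fshb at 798, 416 and 716. Tshb, the thyrotropin subunit, was at 103, 128 and 219 CPM. Of these 4 hormone genes, 3 were at least 1.5-fold lower in library 5 than in library 4 (median log2 ratio -1.01) and 4 were higher in library 6 than in library 5 (0.82). Within cluster 9, which these genes define, Lhb stood at 51171, 47053 and 51978 CPM and Fshb at 7094, 7455 and 7262, close to equal in the 3 libraries. Prl over all cells was near equal in libraries 4 and 5 (15653 and 14539 CPM) and 2.61 times as high in library 6 (37999 CPM, 2.58 to 2.65), and in the pituitary endocrine-like class it stood at 33525, 58582 and 83106 CPM.

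Among pituitary endocrine-like cells the background was 4.51% of 1576 genes higher and 6.66% lower in library 5 than in library 4, and 9.49% of 1749 genes higher and 7.32% lower in library 6 than in library 5. Genes of hormone processing and secretory granules split. Chga and Chgb, acidic proteins that pack the granule, were higher in library 5 than in library 4, Chga at 1764, 3495 and 1092 CPM and Chgb at 1437, 2715 and 2286, while Pcsk2 was lower, at 572, 145 and 853. In counts, 2 of 8 of these genes were past 1.5-fold higher and 1 lower in the first comparison, and 1 higher and 3 lower in the second. The synaptic calcium sensor Syt1 was at 270, 92.1 and 165 CPM, from 248, 19 and 181 UMIs. The make-up of this class differed, as cluster 3 gave 478 of its 1247 cells in library 4, 172 of 373 in library 5 and 651 of 1487 in library 6, and its part in these values was not tested.

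**Figure D2:**
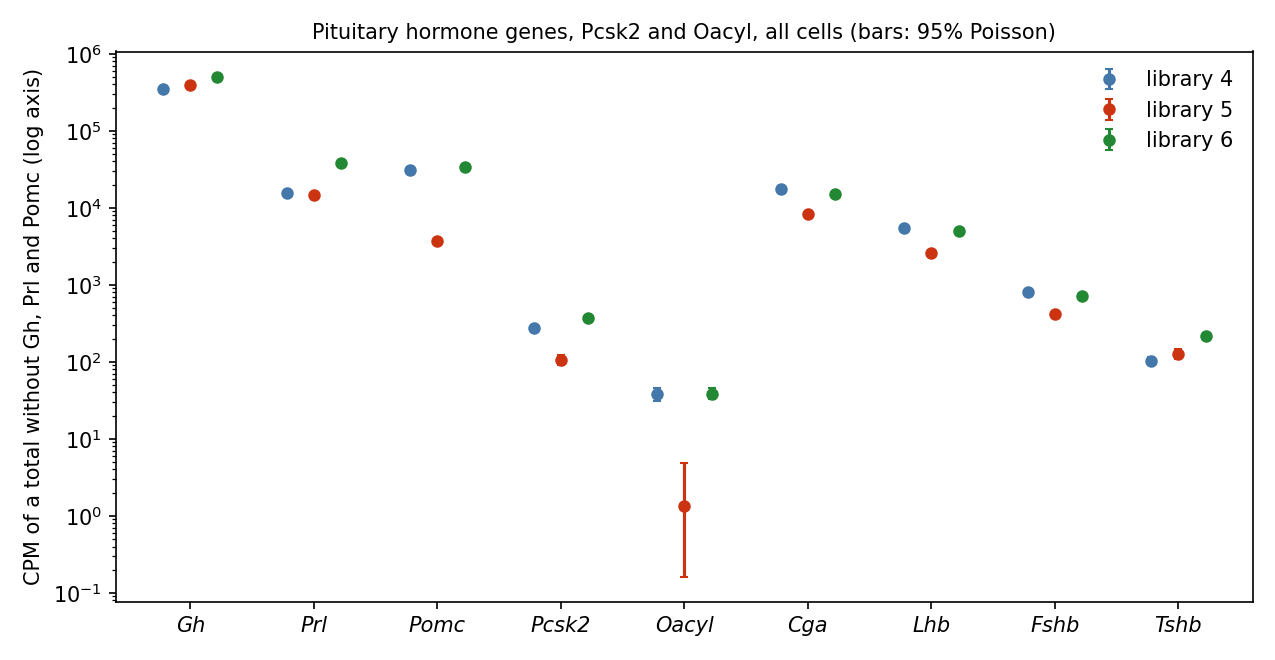
Levels of the 7 pituitary hormone genes, Pcsk2 and Oacyl over all cells of libraries 4, 5 and 6 on a log axis in CPM of UMIs other than Gh, Prl and Pomc, with exact Poisson 95% intervals. Pomc and Pcsk2 were lowest in library 5, at 3681 and 107 CPM over all cells.

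Pituitary transcripts were also counted in brain classes. In neuron-like cells Pomc had 624, 20 and 561 UMIs, in 133 of 295, 16 of 378 and 101 of 171 cells. Library 5 was lowest, as over all cells. Neurons of the arcuate nucleus use Pomc to curb feeding, and their own Pomc cannot be told apart here from free pituitary RNA or doublets. Gh per 100 other UMIs was 2.2, 1.66 and 2.24 in neuron-like cells, 1.47, 1.17 and 2.23 in EPC-like cells and 2.05, 1.61 and 7.06 in tanycyte or pituicyte-like cells. Astrocyte-like cells carried far more, 25.9, 18.0 and 66.3. That class joins 2 clusters. Cluster 11, led by Agt, Ntsr2 and Slc1a2, held 151, 225 and 18 cells with 3.26, 3.96 and 16.3 Gh UMIs per 100, and cluster 14, led by Gm3764 and Agt, held 92, 93 and 76 cells with 55.1, 45.5 and 79.1. Values of the astrocyte-like class in library 6 rest mostly on cluster 14 and those of libraries 4 and 5 mostly on cluster 11, so cluster 14, filled in all 3 libraries, is given beside them. Pituitary endocrine-like cells held 65.8, 62.1 and 61.0 Gh UMIs per 100 others. Cluster 14 thus carried Gh of that order, and more than they did in library 6. Astrocyte and pituitary RNA cannot be told apart in it.

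Mt1, Mt2 and Mt3 code for metallothioneins, small cysteine-rich proteins that bind zinc and copper. Mt1 and Mt2 are switched on by zinc through the factor MTF1 and by glucocorticoids, and Mt3 is the form of the brain. The 3 genes lie side by side on chromosome 8. The 250 bases before each start site are printed from RefSeq (GRCm38.p6, plus strand), because the 3 genes differed between libraries in the same direction. Each match to the pattern TGCNCNC on either strand is in capitals. The pattern is looser than the metal response core TGCRCNC, in which R is A or G and N is any base.

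Mt1, chr8:94178839-94179088: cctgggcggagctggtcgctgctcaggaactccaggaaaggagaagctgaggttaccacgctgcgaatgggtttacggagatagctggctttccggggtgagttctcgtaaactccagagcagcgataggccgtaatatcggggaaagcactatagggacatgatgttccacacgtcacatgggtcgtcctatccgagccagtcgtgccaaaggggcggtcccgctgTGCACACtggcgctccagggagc
Mt2, chr8:94172368-94172617: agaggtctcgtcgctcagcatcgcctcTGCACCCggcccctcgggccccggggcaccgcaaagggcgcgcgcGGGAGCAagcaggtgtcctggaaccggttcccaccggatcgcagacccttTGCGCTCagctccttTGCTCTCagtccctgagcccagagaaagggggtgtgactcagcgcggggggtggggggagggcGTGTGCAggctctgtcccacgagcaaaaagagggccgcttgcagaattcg
Mt3, chr8:94152357-94152606: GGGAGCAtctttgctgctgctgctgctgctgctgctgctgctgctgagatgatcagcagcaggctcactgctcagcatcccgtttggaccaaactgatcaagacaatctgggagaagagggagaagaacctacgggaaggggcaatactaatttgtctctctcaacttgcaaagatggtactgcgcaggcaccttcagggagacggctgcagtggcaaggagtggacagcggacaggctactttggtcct

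The pattern was found 1 time before Mt1, 5 times before Mt2 and 1 time before Mt3. TGCTCTC before Mt2, and GGGAGCA before Mt2 and Mt3, do not hold the stricter core. At least 1 match to the pattern stood in 44.4% of the 32851 mouse promoters of this length and at least 5 in 0.344%. A match of letters is a description and not a binding site.

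All 3 metallothioneins were highest in library 5. Over all cells Mt1 stood at 3543, 6643 and 5278 CPM, 1.88 times as high in library 5 as in library 4 (1.82 to 1.93) and 0.794 times as high in library 6 as in library 5 (0.775 to 0.814). Mt2 stood at 1347, 2104 and 1616 CPM and Mt3 at 1269, 2584 and 1990 CPM. 3 of 3 were past 1.5-fold in the first comparison (median log2 ratio 0.91, against 0.01 for all genes) and 0 of 3 in the second (-0.38 against -0.09). The shares of cell classes differ between these libraries, so the classes follow.

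In tanycyte or pituicyte-like cells Mt1 stood at 6191, 10312 and 6108 CPM, with ratios of 1.67 (1.52 to 1.82) and 0.592 (0.536 to 0.655). Mt2 stood at 1867, 3134 and 1692 CPM and Mt3 at 2294, 3866 and 2528. The 3 genes were thus higher in library 5 than in either other library, 3 of 3 past 1.5-fold both ways. The background in this class was wide, 8.54% of 316 genes higher and 11.4% lower in library 5 than in library 4, and 18.0% of 256 genes higher and 12.5% lower in library 6 than in library 5, with median log2 ratios of -0.16 and 0.15 over all genes of the class. After each cell was thinned to 250 UMIs, Mt1 was found in 69.4%, 85.8% and 62.4% of these cells (92.9%, 98.1% and 85.6% before thinning).

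In astrocyte-like cells Mt1 stood at 9977, 16170 and 7949 CPM, with ratios of 1.62 (1.52 to 1.73) and 0.492 (0.446 to 0.541). The first ratio was 1.25 among cells with at least 500 UMIs. When pituitary RNA was subtracted in proportion to Gh, the second ratio turned to 1.23 (Mt2 1.29, Mt3 1.29). In library 6 this class held 66.3 Gh UMIs per 100 others, and pituitary endocrine-like cells held 61.0. The subtraction was thus scaled to more UMIs than the class held, so its ratios decide nothing here. Within cluster 14 Mt1 stood at 4494, 6273 and 5972 CPM, 1.40 times as high in library 5 as in library 4 (1.19 to 1.64) and 0.952 times in library 6 as in library 5 (0.810 to 1.12). Within cluster 11 it stood at 14217, 21206 and 15658 CPM, the last from 18 cells. The difference between libraries 4 and 5 was therefore present in both clusters, and that between libraries 5 and 6 was not detectable in cluster 14. Cluster 14 held 79.1 Gh UMIs per 100 others in library 6, so it does not compare astrocytes alone. In this class 2 of 3 metallothioneins passed 1.5-fold in the first comparison, beside a background of 7.54% of 345 genes higher and 4.93% lower. In the second, 3 of 3 were lower, beside a background of 38.3% of 230 genes higher and 33.9% lower, so most genes passed 1.5-fold there.

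In EPC-like cells the metallothioneins differed less between libraries 4 and 5. Mt1 stood at 11276, 14474 and 12450 CPM, with ratios of 1.28 (1.21 to 1.36) and 0.860 (0.821 to 0.901), and 0 of 3 metallothioneins passed 1.5-fold in either comparison. Mt3 stood at 10201, 11814 and 12590 CPM. In endothelial-like cells, of which cluster 12 (Slco1a4, Cldn5) held 111, 195 and 45 and cluster 15 (Plvap, Kdr) 116, 30 and 58, Mt1 stood at 869, 2631 and 1270 CPM and Mt2 at 249, 1136 and 279, with first ratios of 3.03 (2.49 to 3.69) and 4.56 (3.23 to 6.55). Within cluster 12 alone Mt1 stood at 1336, 2700 and 2408 CPM and Mt2 at 340, 1256 and 518, so library 5 was above library 4 there too. Neuron-like cells held little, with Mt1 at 366, 453 and 624 CPM and ratios whose intervals reached from 0.936 to 1.64 and from 1.04 to 1.83.

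**Figure D3:**
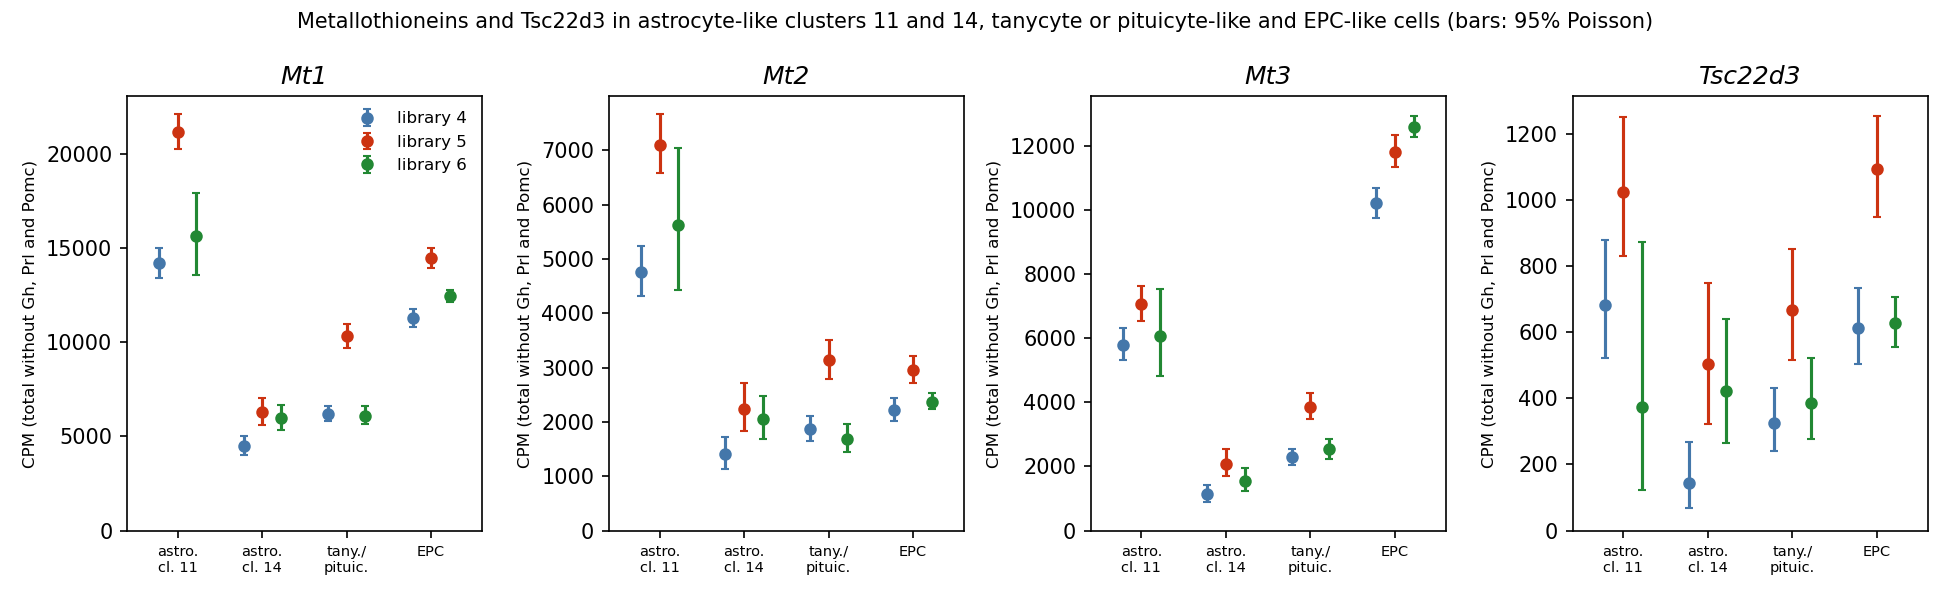
Mt1, Mt2, Mt3 and Tsc22d3 in libraries 4, 5 and 6 for astrocyte-like clusters 11 and 14, tanycyte or pituicyte-like cells and EPC-like cells, as points in CPM of UMIs other than Gh, Prl and Pomc with exact Poisson 95% intervals. Library 5 was highest in tanycyte or pituicyte-like cells (Mt1 at 10312 CPM), and cluster 14 was near equal in libraries 5 and 6 (6273 and 5972 CPM).

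Targets of the glucocorticoid receptor, which carries the corticosterone signal, follow. Tsc22d3, which codes for the leucine zipper protein GILZ that damps inflammation, stood at 264, 471 and 272 CPM over all cells, with ratios of 1.78 (1.61 to 1.98) and 0.578 (0.524 to 0.638). Library 5 was again above both others. It stood at 612, 1094 and 628 CPM in EPC-like cells, with ratios of 1.79 (1.42 to 2.27) and 0.574 (0.477 to 0.691). In tanycyte or pituicyte-like cells it stood at 326, 669 and 385 CPM, with ratios of 2.05 (1.39 to 3.05) and 0.576 (0.380 to 0.866). EPC-like cells and tanycyte or pituicyte-like cells thus gave ratios close to those over all cells.

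Elsewhere Tsc22d3 was less stable. In astrocyte-like cells it stood at 449, 849 and 413 CPM, but the first ratio, 1.89, became 0.883 among cells with at least 500 UMIs, and the second, 0.486, became 1.25 after subtraction of pituitary RNA. Neuron-like cells were near equal at 94.1, 106 and 98.9 CPM. After thinning, Tsc22d3 was found in 11.8%, 21.3% and 14% of EPC-like cells (48.8%, 48.4% and 58.6% before thinning, at median depths of 809, 495 and 1562 UMIs).

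Another pair of targets was past 1.5-fold higher in library 5 than in library 4 over all cells. Nfkbia, the inhibitor of NF-kB, stood at 158, 294 and 149 CPM and Cdkn1a, an inhibitor of the cell cycle, at 68.5, 132 and 79.0. Fkbp5, the co-chaperone that blunts the receptor, was not, at 130, 118 and 148 CPM, nor was Ddit4, which restrains mTOR, at 152, 163 and 139. Sgk1, a kinase of salt handling, stood at 48.4, 58.6 and 35.1 CPM and Klf9 at 133, 178 and 131. Of the listed targets, 3 of 9 were past 1.5-fold higher in library 5 than in library 4 (median log2 ratio 0.43), and 4 of 10 were lower in library 6 than in library 5 (-0.33). The list was chosen with earlier results of these data known, so its count is a description.

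The clock genes cycle each day in most cells. Over all cells 0 of 12 with enough UMIs passed 1.5-fold in the first comparison and 0 of 13 in the second, with median log2 ratios of -0.06 and -0.09, a count too small to be set apart from the background. Per3, a repressor of the loop, stood at 247, 168 and 208 CPM, Bhlhe41 at 157, 113 and 147, and Nr1d1 at 48.4, 47.9 and 44.0. Per1 stood at 57.6, 47.3 and 44.5 CPM and Clock at 47.3, 46.6 and 49.7. Ciart, with too few UMIs for the count, stood at 31.8, 25.3 and 10.9 CPM.

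Dbp, a clock-driven transcription factor, was highest in library 4 and lowest in library 6 in 2 classes of glia. Over all cells it stood at 225, 166 and 138 CPM. In astrocyte-like cells it had 53, 21 and 2 UMIs (335, 149 and 30.6 CPM), with ratios of 0.443 (0.254 to 0.748) and 0.206 (0.0234 to 0.842). In tanycyte or pituicyte-like cells it had 49, 19 and 4 UMIs (333, 199 and 37.6 CPM), with ratios of 0.597 (0.332 to 1.03) and 0.189 (0.0469 to 0.570). EPC-like cells, with the most UMIs of these classes, gave 490, 467 and 384 CPM, and both of their intervals, 0.703 to 1.29 and 0.632 to 1.08, held 1. In pituitary endocrine-like cells it stood at 149, 160 and 73.0 CPM, so libraries 4 and 5 were near equal there. Cluster 14 alone had 15, 3 and 2 UMIs of Dbp.

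Many immediate early genes, which neurons and other cells switch on within minutes of stimulation, were higher in library 5 than in library 4. Fos stood at 480, 1067 and 1072 CPM over all cells, with ratios of 2.22 (2.07 to 2.39) and 1.00 (0.947 to 1.07). Atf3, a factor of the stress response, stood at 22.3, 127 and 106 CPM and Egr2 at 7.07, 60.6 and 27.3. In the first comparison 10 of 17 were past 1.5-fold higher (median log2 ratio 0.81), and in the second 2 of 17 were lower (-0.03). Egr1, Nr4a1 and Dusp1 were not part of this, at 223, 246 and 274, 94.3, 95.9 and 89.4, and 221, 238 and 196 CPM. Arc, known for its part at synapses, had 43, 62 and 210 UMIs over all cells.

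For Fos this held in several classes but not in neuron-like cells. In neuron-like cells Fos had 40, 17 and 10 UMIs, or 145, 72.0 and 61.8 CPM, with a first ratio of 0.497 (0.264 to 0.897). In pituitary endocrine-like cells it stood at 351, 931 and 546 CPM, with ratios of 2.65 (2.21 to 3.18) and 0.587 (0.498 to 0.694), and 4 of 9 immediate early genes were past 1.5-fold higher in the first comparison and 6 of 10 lower in the second. Its clusters differed among themselves, since cluster 2, led by Pappa2 and Ghrhr, gave 483, 281 and 502 CPM while cluster 3 gave 258, 1158 and 405. Cluster 7 stood at 947, 3311 and 2054 CPM. Cluster 5, which Egr2 leads, made up 3.84%, 6.87% and 8.15% of cells, and its part in the sums over all cells was not tested. Astrocyte-like cells gave 202, 524 and 474 CPM of Fos, endothelial-like cells 299, 607 and 1025, and cluster 1 gave 268, 551 and 288. Tanycyte or pituicyte-like cells had only 6, 23 and 18 UMIs of Fos, and EPC-like cells gave 42.6, 32.2 and 55.2 CPM.

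Neuron-like cells had a narrow background, 2.09% of 909 genes higher and 2.86% lower in library 5 than in library 4, and 4.20% of 667 genes higher and 4.50% lower in library 6 than in library 5. The 5 genes farthest from 1 in each direction held neuropeptides and genes of neuron types, and also the pituitary Cga and hemoglobin genes. Hbb-bs, a hemoglobin gene of red cells, had 7, 246 and 6 UMIs in neuron-like cells, 55.3% of the 246 in 1 cell, and 3 of 3 hemoglobin genes were past 1.5-fold higher in the first comparison and 3 of 3 lower in the second. Of the neuropeptides with enough UMIs, 2 of 7 were past 1.5-fold higher and 2 lower in the first comparison (median log2 ratio -0.11), and 3 of 6 higher and 1 lower in the second (0.50). With 295, 378 and 171 neurons, a single neuron rich in one peptide can set a sum.

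Avp, vasopressin of the magnocellular and suprachiasmatic neurons, was higher in library 5 than in library 4 and spread over several cells there. It had 454, 1566 and 964 UMIs in 23, 58 and 6 neuron-like cells, or 1643, 6633 and 5960 CPM, with a first ratio of 4.04 (3.63 to 4.49) that was 3.34 without the richest cell of each library. In libraries 4, 5 and 6 that cell held 24.9%, 38.1% and 47.5% of the UMIs. Avp was higher in library 5 outside neurons too, at 158, 1008 and 84.8 CPM in pituitary endocrine-like cells and 31.9, 118 and 29.9 CPM in EPC-like cells. It was found in 20 of 225 EPC-like cells of library 5, beside 58 of 378 neuron-like cells, so a UMI of Avp does not mark an Avp neuron. Oxytocin (Oxt) had 561, 443 and 11 UMIs, of which 92.2%, 71.8% and 63.6% lay in 1 cell, and its first ratio went from 0.924 to 3.32 without those cells. Sst, somatostatin, stood at 376, 216 and 631 CPM, and its first ratio, 0.574, became 1.29 without them.

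Gal, the peptide of galanin neurons, which in the preoptic area take part in sleep, had 33, 78 and 21 UMIs in 10, 28 and 9 cells, or 120, 330 and 130 CPM, with ratios of 2.77 (1.82 to 4.29) and 0.393 (0.230 to 0.643). Penk, the enkephalin precursor, had 184, 16 and 10 UMIs in 31, 11 and 7 cells, or 666, 67.8 and 61.8 CPM, with a first ratio of 0.102 (0.0570 to 0.170). Ppp1r1b, which codes for DARPP-32 of dopamine-responsive neurons, had 105, 4 and 2 UMIs in 38, 4 and 2 cells, with a first ratio of 0.0446 (0.0119 to 0.118), and Arpp21, a gene of the same striatal type of neuron, stood at 398, 136 and 111 CPM. Penk, Ppp1r1b and Arpp21 were thus high in library 4 alone and near equal in libraries 5 and 6.

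Transmitter genes differed in the same comparison. Slc17a6, the vesicular glutamate transporter of the hypothalamus, stood at 217, 402 and 334 CPM, with a first ratio of 1.85 (1.33 to 2.60), and Gad2, an enzyme of GABA synthesis, at 514, 275 and 210, with a first ratio of 0.536 (0.393 to 0.723). Gad1 stood at 217, 199 and 210 CPM and Slc32a1, the vesicular GABA transporter, at 109, 106 and 74.2, so the GABA genes did not share 1 direction beyond counting error. Of transmitter genes with enough UMIs 1 of 3 was higher and 1 lower in the first comparison, and 0 of 1 passed in the second. Of 11 synaptic vesicle genes 0 were higher and 1 lower. That gene was Cplx2, a regulator of vesicle fusion, at 438, 182 and 272 CPM.

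Feeding and arousal peptides were sparse. Agrp, made by the hunger neurons of the arcuate nucleus, had 2, 26 and 40 neuron UMIs, the last 2 values in 5 cells each. Npy, made by the same neurons, stood at 159, 114 and 538 CPM, and its second ratio, 4.70 (3.02 to 7.54), was 1.92 without the richest cell of each library. Cartpt, a peptide that curbs feeding, was near equal at 221, 241 and 272 CPM. Hcrt, the orexin gene that keeps animals awake, had 21, 46 and 11 UMIs over all cells, in 15, 7 and 10 cells, and Pmch, whose product promotes sleep, 44, 4 and 42 UMIs in 33, 4 and 16 cells. Gnrh1, the releasing hormone of gonadotropins, had 6, 273 and 1 UMIs over all cells, and the 273 lay in 9 cells.

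**Figure D4:**
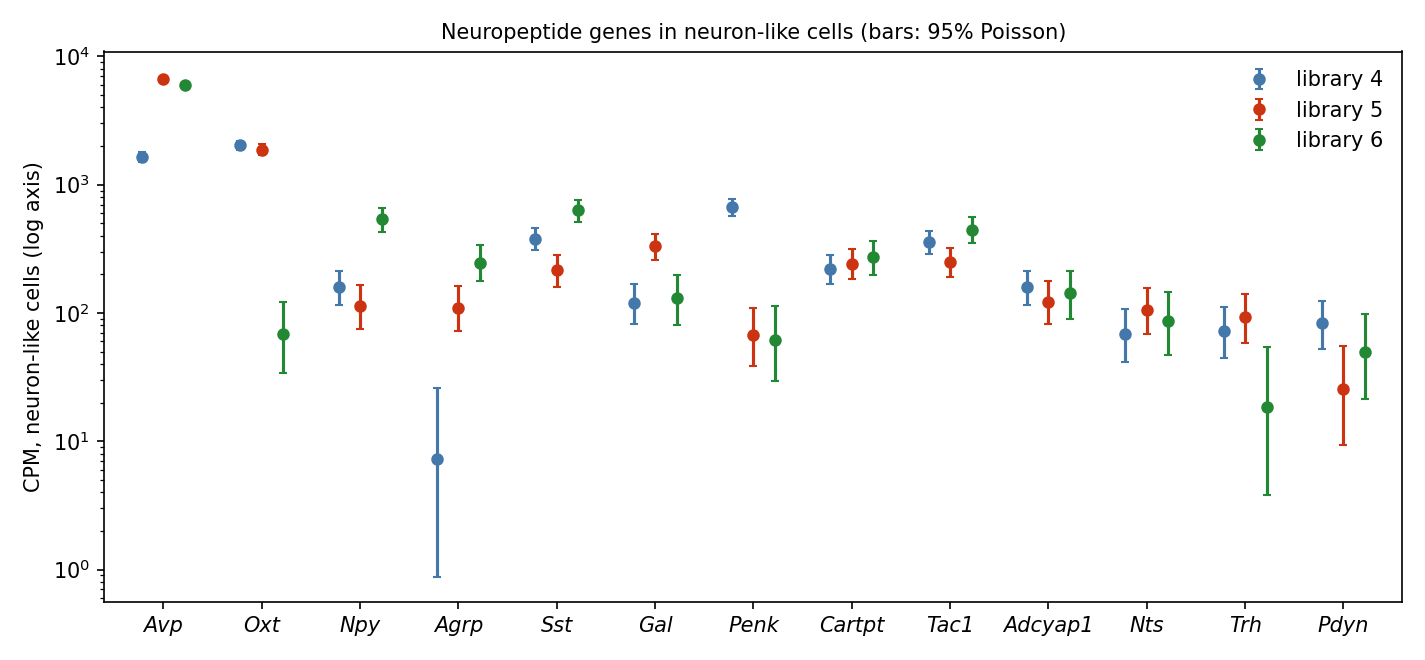
Levels of 13 neuropeptide genes in neuron-like cells of libraries 4, 5 and 6 (295, 378 and 171 cells), in CPM on a log axis with exact Poisson 95% intervals, which do not cover the spread between neurons. Penk was highest in library 4 (666 CPM), Gal in library 5 (330 CPM) and Avp in libraries 5 and 6 (6633 and 5960 CPM).

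EPC-like cells had a background of 2.41% of 581 genes higher and 2.07% lower in library 5 than in library 4, and 5.10% of 1019 genes higher and 5.69% lower in library 6 than in library 5. Besides Tsc22d3, Glul, which makes glutamine from glutamate, stood at 186, 354 and 143 CPM, with ratios of 1.90 (1.24 to 2.95) and 0.403 (0.280 to 0.579). Sat1, which breaks down polyamines, stood at 277, 520 and 267 CPM. Both were higher in library 5 than in either other library. Mrps14, a protein of the mitochondrial ribosome, showed the opposite, at 240, 85.8 and 230 CPM from 45, 16 and 100 UMIs.

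Some protein folding chaperones of EPC-like cells were highest in library 6. Hsp90aa1, the inducible form of HSP90, stood at 3491, 3057 and 4735 CPM, with a second ratio of 1.55 (1.41 to 1.70), and Hsp90ab1, its constitutive form, at 1634, 1394 and 2506, with 1.80 (1.57 to 2.07). Hspe1, the mitochondrial chaperonin partner, stood at 548, 488 and 839 CPM. In the second comparison 5 of 13 chaperones were past 1.5-fold higher and 1 lower (median log2 ratio 0.40 against 0.08 for all genes of the class), and in the first 1 of 11 was higher and 0 lower (-0.23). The lower one was Pdia3, a folding enzyme of the endoplasmic reticulum, at 218, 349 and 179 CPM. Over all cells 2 of 20 were higher in library 5 than in library 4 with 0 lower, and 2 of 21 higher and 2 lower in library 6 than in library 5. The median EPC-like cell held 809, 495 and 1562 UMIs in the 3 libraries, and the part of this depth in the difference was not tested.

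Several genes of tanycyte or pituicyte-like cells stood apart in library 5. Hes1, a target of Notch signalling, stood at 373, 1003 and 376 CPM, with ratios of 2.69 (1.91 to 3.81) and 0.375 (0.252 to 0.547). Aldoc, a glycolytic enzyme of brain glia, stood at 1466, 3688 and 1212 CPM, and Prdx6, an antioxidant enzyme, at 1412, 2988 and 1071. These were higher in library 5 than in either other library. Mest, an imprinted gene, stood at 1202, 219 and 977 CPM, with ratios of 0.183 (0.110 to 0.288) and 4.45 (2.77 to 7.5), Igfbp5, which binds insulin-like growth factors, at 1459, 334 and 846, and Npc2, a cholesterol carrier of the lysosome, at 706, 178 and 940. Mest and Igfbp5 are also leading genes of pituitary clusters 3 and 8, and the pituitary Cga went with them in this class, at 726, 94.0 and 752 CPM, a link that was not tested. Rax, the transcription factor that marks tanycytes and pituicytes, was 502, 439 and 611 CPM, with intervals of 0.584 to 1.29 and 0.930 to 2.10 for its ratios. The markers fixed here do not separate tanycytes from pituicytes, so the mix of both in each library cannot be told apart from a difference within them.

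Over all cells, the genes of astrocyte channels, uptake and secreted proteins were past 1.5-fold higher in library 5 than in library 4 for 9 of 12 and lower in library 6 than in library 5 for 11 of 12. They followed the shares of astrocyte-like cells, 6.96%, 11.8% and 2.40%. Within astrocyte-like cells 1 of 11 was higher in the first comparison and 10 of 11 lower in the second, where cluster 14 took the place of cluster 11. Within cluster 14, Glul stood at 522, 923 and 538 CPM, with ratios of 1.77 (1.11 to 2.83) and 0.583 (0.349 to 0.957). Cst3, a secreted protease inhibitor, stood at 6916, 8120 and 7835 CPM there and Clu, a secreted chaperone, at 1290, 1259 and 1229. Inside cluster 14, which also held much Gh, the second difference was therefore small for Cst3 and Clu. It was larger for Glul and for the glutamate transporter Slc1a2 (667, 839 and 480 CPM), which helps to define the class. Over the whole astrocyte-like class, the second ratio of Slc1a2 turned direction when pituitary RNA was subtracted in proportion to Gh. That subtraction was scaled to more UMIs than the class held in library 6, so the turn decides nothing. Gfap, the filament of reactive astrocytes, had 29, 71 and 17 UMIs in the class, or 183, 502 and 260 CPM, with a first ratio of 2.74 (1.76 to 4.38).

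Genes of the blood-brain barrier were mostly highest in library 5. Over all cells 5 of 10 were past 1.5-fold higher in library 5 than in library 4 and 9 of 10 lower in library 6 than in library 5, beside endothelial shares of 6.50%, 8.31% and 2.63%. In endothelial-like cells the background was 11.6% of 413 genes higher and 8.72% lower in library 5 than in library 4, and 14.1% of 263 genes higher and 19.8% lower in library 6 than in library 5. Within that class 5 of 8 barrier genes were higher in the first comparison (median log2 ratio 0.76) and 6 of 7 lower in the second (-1.06), with different shares of clusters 12 and 15 in each library. Slc2a1, the glucose transporter of the barrier, stood there at 852, 1837 and 334 CPM. Within cluster 12 it stood at 1786, 2126 and 725, with ratios of 1.19 (0.961 to 1.48) and 0.341 (0.221 to 0.507), so the lower level in library 6 was also present within 1 cluster, from 28 UMIs in 45 cells. Gh per 100 other UMIs was 10.9, 2.26 and 22.1 in cluster 12, and the part of free pituitary RNA in its levels was not tested. Cdkn1a within cluster 12 stood at 316, 821 and 648 CPM, with a first ratio of 2.60 (1.66 to 4.21).

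Ptgds, which makes prostaglandin D2, a lipid known to promote sleep, and is made in the brain mostly by the meninges, stood at 455, 2083 and 373 CPM over all cells, with ratios of 4.58 (4.29 to 4.89) and 0.179 (0.168 to 0.191). It went with the share of fibroblast or leptomeningeal-like cells, which it helps to define, at 1.66%, 3.66% and 1.02% of cells, or 58, 99 and 40 cells. Within those cells it stood at 25827, 46924 and 28928 CPM, and 1 cell held 31.3%, 8.52% and 23.9% of its UMIs there. Homeostatic microglia genes followed the microglia-like share as well, with 0 of 7 past 1.5-fold in the first comparison and 3 of 4 lower in the second (median log2 ratio -1.94).

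Library 6 had the lowest share of mitochondrially encoded transcripts in every class except fibroblast or leptomeningeal-like cells, which are given below. Of UMIs other than Gh, Prl and Pomc these transcripts took 6.88%, 7.76% and 4.48% in neuron-like cells, 4.38%, 5.13% and 2.64% in EPC-like cells, and 5.97%, 6.13% and 4.33% in pituitary endocrine-like cells. In the second comparison 11 of 12 mitochondrially encoded genes were past 1.5-fold lower in neuron-like cells (median log2 ratio -0.88 against 0.07 for all genes of the class), 11 of 11 in EPC-like cells (-1.11), 9 of 10 in astrocyte-like cells (-0.88), 6 of 12 in pituitary endocrine-like cells (-0.59) and 4 of 9 in tanycyte or pituicyte-like cells (-0.57). Over all cells it was 9 of 12 (-0.75), while in the first comparison 0 of 12 passed (0.16). Classes of the brain and of the pituitary thus had this in common.

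Ribosomal protein genes went the other way. They took 5.01%, 5.16% and 5.98% of UMIs in neuron-like cells, 8.99%, 9.33% and 10.6% in EPC-like cells and 14.7%, 13.5% and 17.6% in pituitary endocrine-like cells, highest in library 6 each time. Of those with enough UMIs, 17 of 84 were past 1.5-fold higher in library 6 than in library 5 over all cells (median log2 ratio 0.45). The background there was 5.68%. In tanycyte or pituicyte-like cells 24 of 74 were higher (0.46), beside a background of 18.0%. In 3 classes the count did not exceed the background. These were pituitary endocrine-like cells (5 of 82, 0.35, beside 9.49%) and neuron-like cells (3 of 75, 0.18, beside 4.20%). The last was EPC-like cells (1 of 82, 0.17, beside 5.10%), where 1 was lower. In astrocyte-like cells 68 of 69 were higher (1.07), beside a background of 38.3% and with cluster 14 in the place of cluster 11. In cluster 14 the share was 10.5%, 9.05% and 13.6%. Not every class followed. The mitochondrial share of fibroblast or leptomeningeal-like cells was 5.78%, 10.4% and 7.40%, and the ribosomal share of cluster 18 was 18.4%, 24.2% and 20.3%. Library and group cannot be told apart in either gene group.

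**Figure D5:**
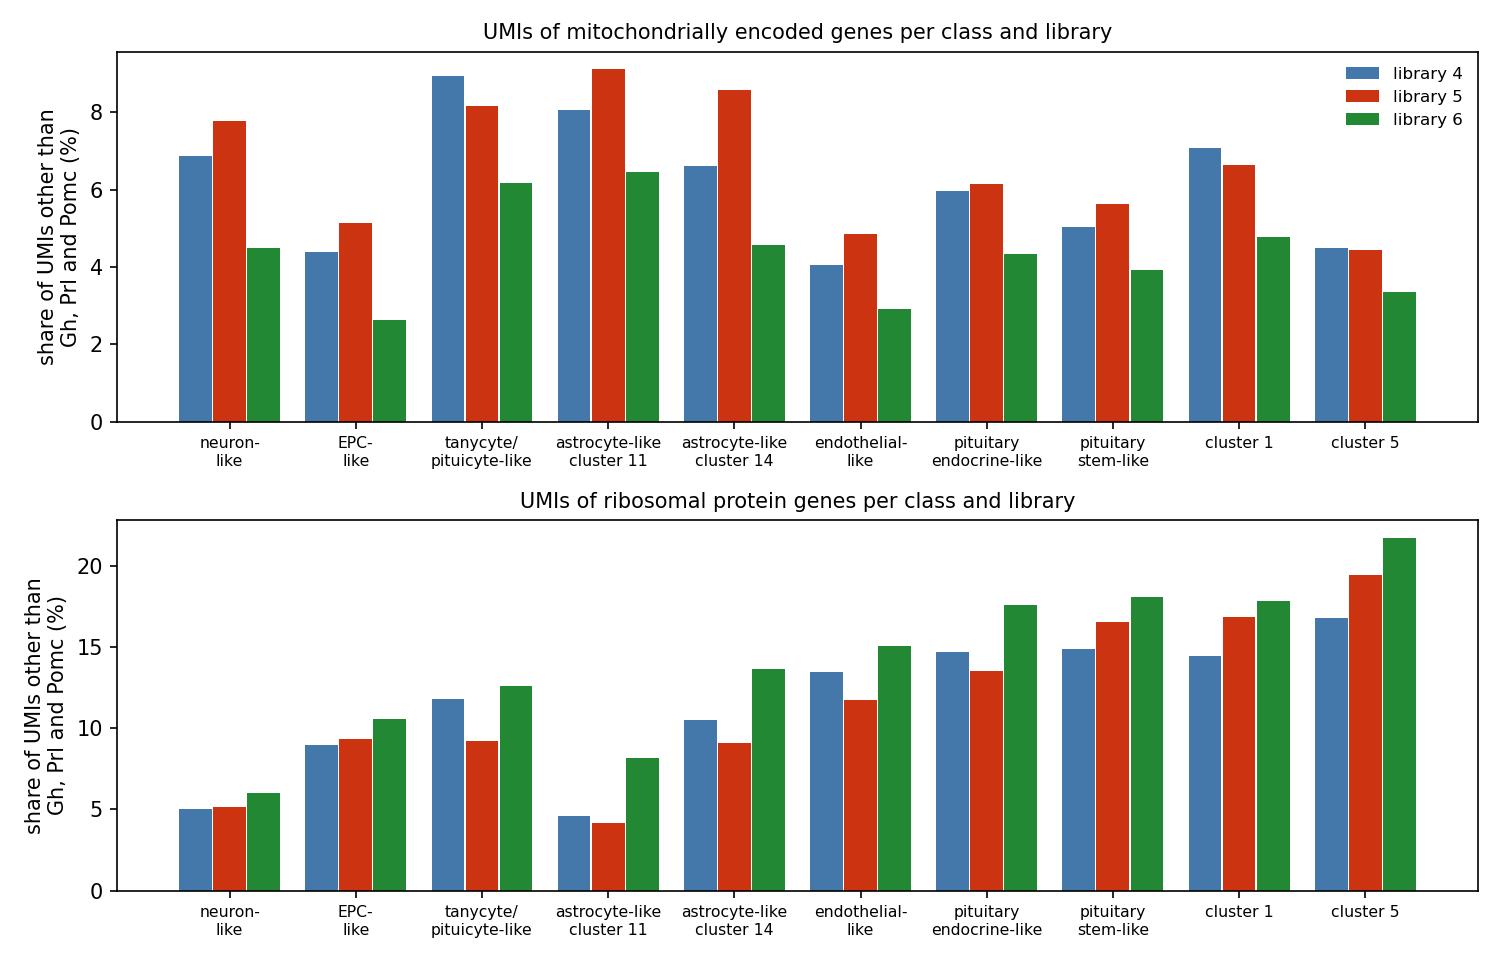
Share (%) of UMIs other than Gh, Prl and Pomc taken by mitochondrially encoded genes and by ribosomal protein genes, per class and cluster, in libraries 4, 5 and 6. Library 6 was lowest for mitochondrial transcripts in most classes, for example 4.48% against 6.88% and 7.76% in neuron-like cells.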

How the data were processed

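Cells of 3 libraries were analysed. The authors mapped 10x Chromium v2 reads and deposited filtered UMI counts per gene and cell, with no normalization, for 18634 genes and 29571 cells. The submitters' processing notes name Cell Ranger 2.2.0, R 3.5.3 and GRCm38, and the annotation release is not given in the sources used here. Because the deposited columns carry a library code and no sample name, libraries were numbered in column order.

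Gh, Prl and Pomc were left out of totals and clustering. Cells were clustered over 2000 variable genes, 13 principal components and 20 neighbours (Leiden, resolution 1, seed 7) and named from at least 3 fixed markers that were at least 2-fold higher and found in at least 10% of cells. Counts were summed per library and class of at least 50 cells in each library. Single clusters given beside a class can hold fewer, such as clusters 11 and 12 with 18 and 45 cells in library 6. Intervals are exact Poisson (levels), Clopper-Pearson (shares) and conditional binomial (ratios), at 95%, for counting error only. A count of 0 allows 3 UMIs. For shares of cells with a UMI, cells were thinned to 250 UMIs. Total counts ran from 2121900 to 5488950 UMIs per library, with library 5 lowest over all cells. In neuron-like, astrocyte-like and endothelial-like cells library 6 had the lowest summed counts, from fewer cells. Its median cell was the deepest there, at 817, 595.5 and 789 UMIs.

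The members and gene lists were chosen with earlier results of these data known. Named are members of fixed lists, the 10 leading genes of clusters, and per class the 5 genes farthest from 1 in each direction with at least 100 UMIs (200 over all cells). The fibroblast or leptomeningeal-like and microglia-like classes, with under 50 cells in library 6, are described by a few values only. Scrublet marked 4 of 10113 cells as doublets and is taken not to have worked, so all cells were kept. Alternatives covered totals, depth, doublet scores, weighting of cells, free RNA, clustering, minimum counts, fold, single cells and astrocyte clusters, the last 2 and the doublet scores chosen after seeing the data.

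Scripts were tested on simulated data. Of 1500 simulated cells 99.3% were named as drawn, and of 187 genes changed 2-fold between simulated libraries 4 and 5 over all cells 96.8% were past 1.5-fold. The analysis ran in scanpy 1.11.5 with leidenalg 0.10.2 and scipy 1.17.1 on Python 3.11.15. Promoters are from RefSeq GRCm38.p6. Some genes are not reported here.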

Additional observations from a re-analysis of the deposited data

How the results depend on the processing

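Each group was 1 library, so nothing shows how far 2 libraries of the same group would differ, and the sleep group of libraries 4 to 6 is not known here. No paired analysis was possible because each group is 1 library. Library 5 is the shallowest over all cells, and single cells set some peptide sums. The library codes carry the comparison, so anything that differed in dissection or preparation is part of every ratio.

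Of the gene ratios recomputed under the alternatives, 565 moved by less than their counting error, 104 moved by more, and 7 that were past 1.5-fold crossed 1. In the last group the first ratio of Tsc22d3 in astrocyte-like cells became 0.883 among cells with at least 500 UMIs. Subtracting pituitary RNA in proportion to Gh turned the second ratio in astrocyte-like cells for Mt1 (1.23), Mt2 (1.29), Mt3 (1.29), Tsc22d3 (1.25) and Slc1a2 (1.28). The first ratio of Sst in neuron-like cells became 1.29 without the richest cell of each library. The causes were not tested.

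The share of genes past 1.5-fold either way was 11.0% and 20.6% over all cells in the first and second comparison, and at 2-fold it was 2.61% and 6.81%. At 2-fold it was 2.61% and 42.2% in astrocyte-like cells, 1.76% and 2.10% in neuron-like cells, 0.516% and 1.96% in EPC-like cells, 3.16% and 4.30% in tanycyte or pituicyte-like cells, and 2.47% and 3.37% in pituitary endocrine-like cells, a stricter fold by construction. The first comparison moved from 12.5% to 7.89% in astrocyte-like cells with at least 500 UMIs and to 22.0% after free RNA was subtracted, and from 11.2% to 20.1% in pituitary endocrine-like cells with at least 500 UMIs. With a minimum of 50 UMIs per gene, which admits noisier genes, it was 10.2% in neuron-like cells, 9.87% in EPC-like cells (17.1% in the second comparison) and 20.5% in pituitary endocrine-like cells.

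Among cells with at least 500 UMIs, shares of neuron-like cells were 10.6%, 19.6% and 6.20% and the astrocyte share of library 5 was 6.56%. At resolution 0.5 pituitary endocrine-like cells were 49.3%, 27.3% and 62.0%.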
